A study of Mus musculus with 19 samples.

Results

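The miRNAs described here are the passenger strands named on a mouse miRNA array, measured in the liver of mice that received the polycyclic aromatic hydrocarbon dibenz[a,h]anthracene by mouth. They were taken by name: every mouse name that ended in an asterisk, except those of 7 families (let-7, miR-34, miR-199, miR-297, miR-466, miR-467 and miR-669). This left 105 of 118 asterisk names, among 696 miRNAs on the array. Male MutaMouse animals (transgenic strain 40.6), made for scoring mutations in a reporter transgene, were 10 weeks old and were gavaged daily for 28 days with the compound dissolved in olive oil. Controls received olive oil alone, and liver was collected 3 days after the last dose. There were 5 control arrays, 5 of the low dose (6.25 mg/kg/day), 4 of the middle dose (12.5 mg/kg/day) and 5 of the high dose (25 mg/kg/day). Each array held the RNA of 1 mouse, so that the number of arrays limits the precision. The comparison with the vehicle asks whether hepatic miRNAs responded to this exposure, and here it was made for the passenger strands and for their balance with their guides. All comparisons share the 5 control arrays, and in whole liver fewer cells of a type and less RNA per cell cannot be told apart.

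A miRNA is cut from a hairpin precursor as a short duplex of paired strands. The guide strand is loaded into an Argonaute protein and directs the silencing of messenger RNAs, while the passenger strand is mostly released and degraded. Both strands come from the same transcript, so the level of a precursor moves them together, whereas strand choice and the stability of the loaded strand move them apart. Older names mark the less abundant strand with an asterisk, and current names give the arm of the hairpin (5p or 3p). Some asterisk strands, those of miR-30a, miR-30e and miR-140 among them, are loaded and persist in many tissues.

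The sequences below are the mature strands that the results turn on, from RefSeq (GRCm38.p6), written 5′ to 3′ with the seed (bases 2 to 8) in capitals. The seed is the part of a miRNA that pairs with its targets. The first 5 are the miR-30 strands, shown because the ratio of passenger to guide changed for miR-30a and miR-30e.
miR-30a*: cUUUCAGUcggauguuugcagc
miR-30e*: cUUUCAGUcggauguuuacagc
miR-30c-2*: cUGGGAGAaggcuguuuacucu
miR-30a: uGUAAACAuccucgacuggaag
miR-30e: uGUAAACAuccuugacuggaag
The passenger strands of miR-30a and miR-30e shared the seed UUUCAGU and differed at 1 of 22 bases (G18A, miR-30a* first, counted from the 5′ end). Their guides shared the seed GUAAACA and also differed at 1 of 22 bases (C13U, miR-30a first). miR-30a* lies at chr1:23272315-23272336 and miR-30c-2* at chr1:23291754-23291775, both on the plus strand, with 19361 bases between the 2 hairpins. miR-30e* lies at chr4:120772618-120772639 on the minus strand. The next 6 are other passenger strands detected on every array, shown because their levels or ratios are given below.
miR-22*: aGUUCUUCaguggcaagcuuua
miR-140*: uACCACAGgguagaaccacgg
miR-29c*: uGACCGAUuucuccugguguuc
miR-191*: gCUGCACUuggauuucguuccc
miR-877*: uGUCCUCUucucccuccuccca
miR-3072*: aGGGACCCcgagggagggcagg
The seeds of these 6 and of miR-30c-2* were each held by 1 of the strands looked up. miR-22* lies at chr11:75463734-75463755, miR-140* at chr8:107551288-107551308, miR-29c* at chr1:195037562-195037583 and miR-191* at chr9:108568367-108568388, all on the plus strand. miR-877* lies at chr17:35960731-35960752 on the minus strand and miR-3072* at chr12:109747893-109747914 on the plus strand.

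The arrays lay on 3 slides that each held all 4 groups, and signal over the whole array was lower in the higher dose groups. Position on the slide was not balanced. All high dose arrays lay on row 2 of their slide, as did the middle dose arrays except replicate 20. Controls except replicate 22 and low dose arrays except replicate 24 lay on row 1. Dose and row can thus hardly be told apart. The 75th percentile of signal over the probes detected on all arrays was 357 ± 111 (SD, n = 5) in controls, 301 ± 74.6 (SD, n = 5) in low dose mice, 215 ± 60.7 (SD, n = 4) in middle dose mice and 195 ± 37.4 (SD, n = 5) in high dose mice. Levels are therefore given as log2 values relative to that percentile of each array, raised to a floor of -4.79, and levels at the floor have no order. The hepatocyte miRNA miR-122 had the highest mean level of all miRNAs on the array and miR-192 was in place 7. Among asterisk strands of other cell types on the array, 0 of 1 leukocyte, 0 of 3 endothelial, 1 of 4 stellate and smooth muscle, 1 of 6 bile duct and 1 of 1 muscle markers were detected on any array. The stellate and bile duct strand was the same one, miR-31*, and the muscle strand was miR-133a*, detected on 3 arrays. These counts do not show that such cells were absent, since guides marking most of these types were detected on all 19 arrays. By mean level miR-126-3p (endothelial) was in place 17, and miR-142-3p and miR-223 (leukocyte) in 39 and 59. The erythroid miR-451 was in place 8, miR-143 (smooth muscle) in 94 and miR-200b (bile duct) in 96. Among other guides listed, miR-150 and miR-145 were detected on 0 arrays, miR-214 on 18, miR-1 on 6 and miR-133a on 3.

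Most passenger strands were not detected in this liver. Of the 105, 26 were detected on at least 1 of 19 arrays, by the detection mark of the scanner software, and 79 on none. Detected on all arrays were miR-30a*, miR-22*, miR-30e*, miR-140*, miR-877*, miR-191*, miR-3072*, miR-29c*, miR-30c-2* and miR-299*, 10 in all. Detection on at least 4 arrays, the requirement for testing, was met by 19 of 105 (18.1%), against 189 of the 591 other miRNAs (32.0%). The guide was on the array for 87 of the 105 and was itself detected on at least 4 arrays for 40. In 28 of those 40 pairs the passenger was never detected, and in 20 of these 28 the guide was detected on all arrays. The 20 were the passengers of miR-101a, miR-106b, miR-10a, miR-148a, miR-15a, miR-15b, miR-19a, miR-200a, miR-200b, miR-203, miR-20a, miR-20b, miR-26b, miR-27a, miR-27b, miR-28, miR-29a, miR-322, miR-33 and miR-93. The opposite arrangement was seen for 6 strands, miR-17*, miR-191*, miR-299*, miR-3072*, miR-483* and miR-877*, which were tested although the guide of the same name was detected on fewer than 4 arrays. Among arrays with both strands detected, 1 passenger (miR-877*) lay above its guide, on 1 array. A probe's brightness also depends on its own sequence, so these comparisons between strands describe detection, not abundance.

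The number of passenger strands detected was lower on the arrays with the fewest miRNAs detected in all. The number was 15, 18, 19, 17 and 20 in the control arrays, 14, 18, 24, 16 and 14 in low dose mice, 16, 14, 11 and 15 in middle dose mice and 17, 15, 12, 12 and 13 in high dose mice. The control and high dose groups overlapped, with controls from 15 to 20 and high dose arrays from 12 to 17. As a share of all miRNAs detected on the array, passenger strands made up 8.86 ± 0.565% (SD, n = 5) in controls, 8.78 ± 1.56% (SD, n = 5) in low dose mice, 8.24 ± 1.01% (SD, n = 4) in middle dose mice and 8.10 ± 0.789% (SD, n = 5) in high dose mice. Differences between these means were smaller than or close to the spread within groups. By summed signal of the brightest probes, detected passenger strands held 0.282 ± 0.0370% (SD, n = 5) of the total in controls and 0.260 ± 0.0154% (SD, n = 5) in high dose mice. These measures over the members are descriptions, with no test.

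**Figure D1:**
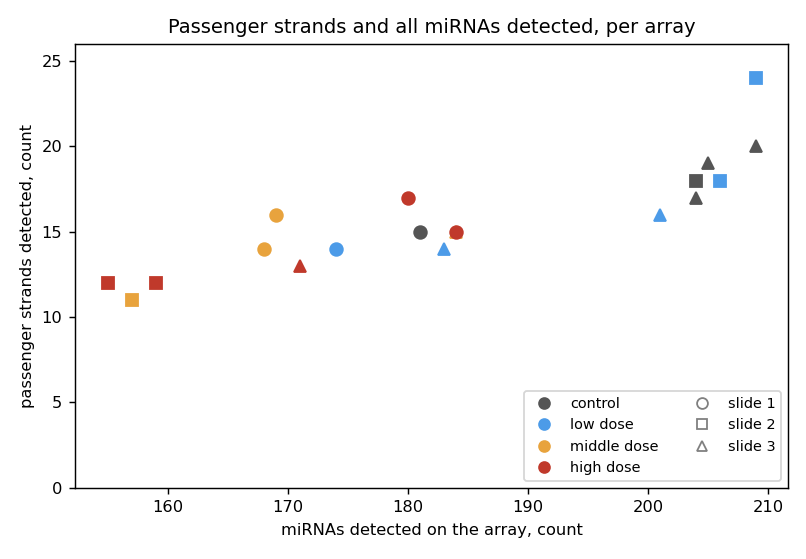
Passenger strands detected (vertical axis, count) against all miRNAs detected (horizontal axis, count), 1 point per array, coloured by dose group and shaped by slide. Arrays with 155 to 159 miRNAs detected, 1 middle and 2 high dose arrays of slide 2, carry 11 or 12 passenger strands, and the array with most, 24, is a low dose array with 209 miRNAs detected.

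A few dim strands are given here, picked because their detection differed most between controls and the middle and high doses. The differences below therefore reflect that choice and were not tested. Over the whole array the mean number of miRNAs detected was 200.6 in controls, 194.6 in low, 169.5 in middle and 169.8 in high dose mice. miR-193*, the passenger of a hepatocyte miRNA, and miR-31* were each detected on 4 of 5 control arrays, 2 of 5 low dose arrays and 0 of the 9 middle and high dose arrays. miR-24-1*, from a cluster with miR-23 and miR-27, was detected on 5 control, 4 low, 2 middle and 1 high dose arrays. miR-24-2* was detected on 2 controls and 1 low dose array, miR-455* on 2 controls, and miR-483*, made within the Igf2 gene, on 4, 4, 1 and 4 arrays. miR-193*, miR-31* and miR-24-1* sat at the floor on all 19 arrays, so no change of level can be given for them. Array signal was lower in the same groups, and its part in this was not tested.

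**Figure D2:**
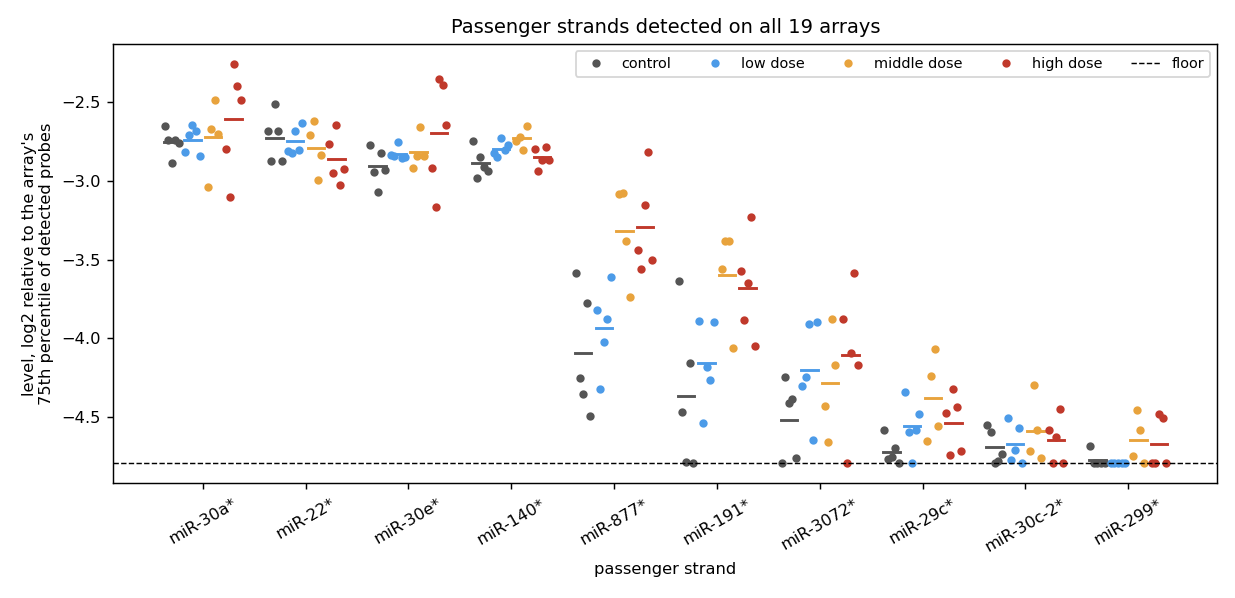
Level of each passenger strand detected on all arrays (vertical axis, log2 after scaling to that percentile) by dose group, with 1 point per array, a line at each group mean and a dashed line at the floor of -4.79. miR-30a*, miR-22*, miR-30e* and miR-140* stay between -3.17 and -2.26 in every group, miR-877* and miR-191* have higher group means at the middle and high doses, with all high dose arrays of miR-877* above all controls, and miR-299* is at the floor on 13 of 19 arrays.

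The passenger strands of the miR-30 family, abundant miRNAs of epithelia and hepatocytes, were compared between doses first. miR-30a* was at -2.65, -2.74, -2.89, -2.74 and -2.76 in the controls, -2.82, -2.71, -2.65, -2.69 and -2.84 in low dose mice, -3.04, -2.67, -2.49 and -2.71 in middle dose mice and -2.80, -3.10, -2.26, -2.40 and -2.49 in high dose mice. The high dose values were the most spread, with 3 above all controls and 1 below. The difference in high dose mice was 0.15 (SE 0.11; limma adjusted p = 0.469). miR-30e* was at -2.78, -2.95, -3.07, -2.82 and -2.93 in the controls, -2.84, -2.85, -2.76, -2.85 and -2.85 in low dose mice, -2.92, -2.84, -2.66 and -2.84 in middle dose mice and -2.92, -3.17, -2.36, -2.40 and -2.65 in high dose mice. It differed by 0.20 (SE 0.11; limma adjusted p = 0.275) in high dose mice, again with 3 arrays above all controls and 1 below. With the 75th percentile over all probes as the scale both differences were negative, -0.12 for miR-30a* and -0.06 for miR-30e*, and without scaling they were -0.56 and -0.51. miR-30c-2*, encoded beside miR-30a, lay between -4.79 and -4.29 and differed by -0.02 (SE 0.09) in high dose mice. It was well above background on 5 control, 4 low, 1 middle and 1 high dose arrays. Of the 6 passenger names listed for this family, 5 were on the array, 4 were detected and 3 were tested, and none of the 3 passed at any dose.

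Across the array, 0 of 19 passenger strands passed on level in any of the 5 tests, against 4.33% of 208 miRNAs in low dose mice, 5.77% in middle dose mice, 2.4% in high dose mice, 8.17% for the mean of the doses and 0.962% for the trend over dose (limma, Benjamini-Hochberg adjusted p under 0.05 over all 208). Of the 19, 3 (miR-193*, miR-31* and miR-24-1*) were at the floor on every array. Their change was fixed at 0, so they could not pass. At an unadjusted p under 0.05 there were 0 in low dose mice, 4 higher and 1 lower in middle dose mice, 3 higher and 0 lower in high dose mice, 3 higher and 1 lower for the mean of the doses, and 2 higher and 0 lower for the trend. Over all 208 miRNAs, in the same order, 28, 45, 41, 44 and 35 were higher at that threshold. Lower were 0, 7, 12, 7 and 13. The median change of the 19, those 3 fixed values included, was 0, 0.07 and 0.05 in low, middle and high dose mice, beside 0.07, 0.11 and 0.05 over all 208. The count depended on single arrays: without control replicate 1, the only control on slide 1, it was 1, 4, 2 and 3 in low, middle and high dose mice and for the mean of the doses. Without high dose replicate 8 it was 1 in high dose mice and 2 for the trend.

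miR-877* and miR-191* had the largest differences of level in middle and high dose mice. miR-877*, whose precursor is a short intron of Abcf1 (a mirtron), was at -3.58, -4.25, -4.35, -3.78 and -4.49 in the controls, -3.82, -4.32, -4.02, -3.88 and -3.61 in low dose mice, -3.09, -3.08, -3.38 and -3.74 in middle dose mice and -3.44, -3.56, -3.15, -2.82 and -3.51 in high dose mice. All 5 high dose values lay above all 5 controls. The difference was 0.70 (SE 0.23; limma adjusted p = 0.0888) in middle dose mice and 0.73 (SE 0.21; limma adjusted p = 0.0811) in high dose mice. Within slides it was 0.08 on slide 1, 1.27 on slide 2 and 0.70 on slide 3 in high dose mice. miR-191*, from the miR-191 and miR-425 cluster, was at -3.64, -4.47, -4.78, -4.16 and -4.79 in the controls, -3.89, -4.54, -4.18, -4.26 and -3.89 in low dose mice, -3.56, -3.38, -3.38 and -4.06 in middle dose mice and -3.57, -3.88, -3.65, -3.23 and -4.05 in high dose mice. It differed by 0.63 (SE 0.23; limma adjusted p = 0.111) in middle dose mice and 0.55 (SE 0.21; limma adjusted p = 0.119) in high dose mice, with 2 of 5 high dose arrays above all controls.

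Before scaling, the group means of both strands were close. The signal of miR-877* was 20.2 ± 1.84 (SD, n = 5) in controls and 19.6 ± 0.350 (SD, n = 5) in high dose mice, and over all 19 arrays it stayed between 15.5 and 24.3. That of miR-191* was 16.3 ± 0.792 (SD, n = 5) and 15.1 ± 1.96 (SD, n = 5), between 13.2 and 19.7 in all. The signals of these 2 strands stayed in those ranges on arrays whose 75th percentile ranged from 139 to 491, whereas miR-30a* was at 52.3 ± 14.5 (SD, n = 5) in controls and 31.9 ± 5.77 (SD, n = 5) in high dose mice. With the 75th percentile of the array as a covariate, chosen after seeing the data, the limma adjusted p of miR-877* in high dose mice was 0.754. These differences depended on the scaling. With labelling spike-ins as the scale, the high dose difference was 0.80 (limma adjusted p = 0.000201) for miR-877* and 0.64 (limma adjusted p = 0.00133) for miR-191*, and without scaling it was -0.0051 (limma adjusted p = 1.00) and -0.13 (limma adjusted p = 0.339).

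**Figure D3:**
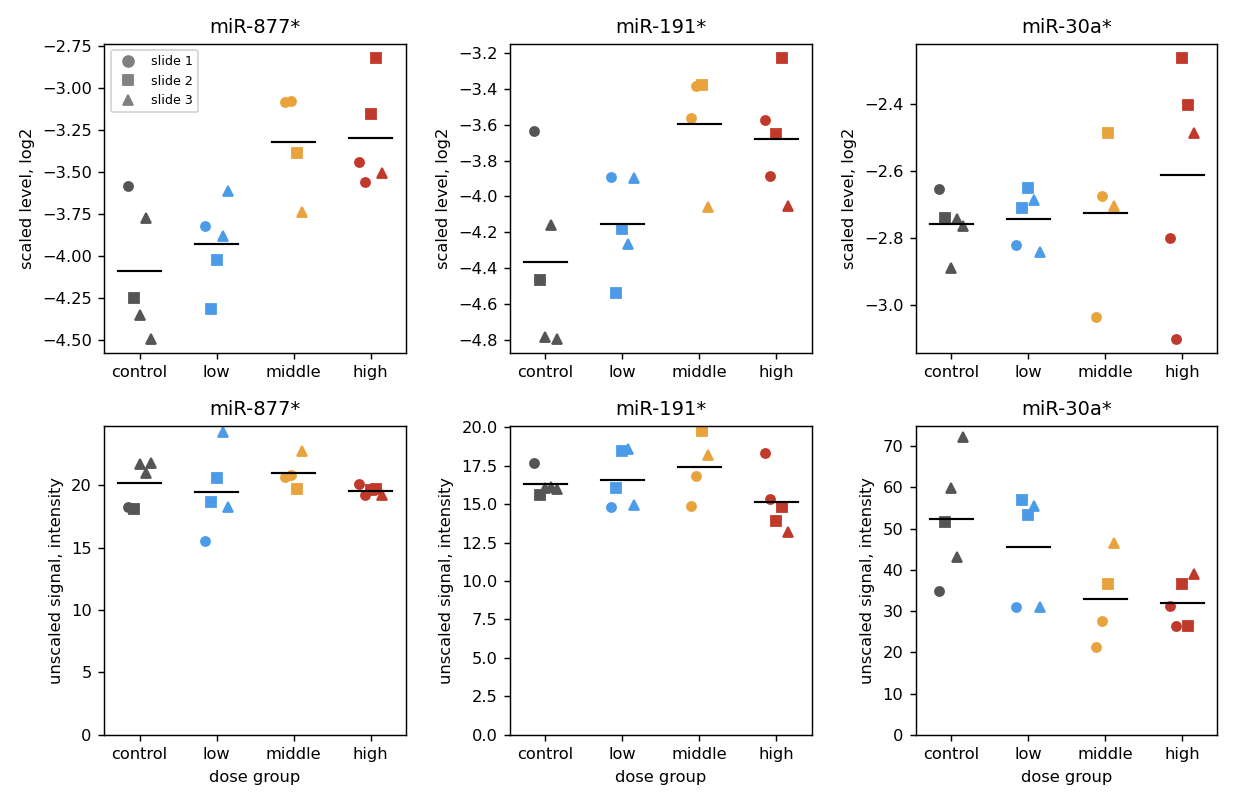
Scaled level (top, log2) and unscaled signal (bottom, intensity, axis from 0) of miR-877*, miR-191* and miR-30a* by dose group, with 1 point per array, shaped by slide, and a line at the group mean. The scaled level of miR-877* is higher in high dose mice than in every control, while its unscaled signal stays between 15.5 and 24.3, and the unscaled signal of miR-30a* is lower at the middle and high doses.

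The other tested strands differed less in middle and high dose mice. In low dose mice the largest difference was that of miR-3072*, 0.27 (SE 0.18; limma adjusted p = 0.668). miR-3072*, from the Dlk1-Dio3 imprinted region, was between -4.79 and -4.25 in controls and between -4.79 and -3.58 in high dose mice, a difference of 0.41 (SE 0.19; limma adjusted p = 0.188). miR-378*, from a hepatocyte miRNA within the Ppargc1b gene, was at -4.55, -4.48, -4.37, -4.61 and -4.49 in controls and -4.70, -4.64, -4.79 and -4.79 in middle dose mice, where it differed by -0.25 (SE 0.08; limma adjusted p = 0.0768). All 4 middle dose values lay below all controls, and miR-378* was well above background on 0 of those 4 arrays and on all 5 controls. The difference in middle dose mice is thus between a measured group and a bound, and that bound gave no fold above 1. miR-140*, a strand of a cartilage-enriched miRNA found in many tissues, was at -2.89 ± 0.0913 (SD, n = 5) in controls, -2.73 ± 0.0638 (SD, n = 4) in middle dose mice and -2.85 ± 0.0635 (SD, n = 5) in high dose mice. It differed by 0.15 (SE 0.05; limma adjusted p = 0.0886) in middle dose mice and by 0.04 (SE 0.05) in high dose mice. miR-22*, from a miRNA abundant in liver, was at -2.73 ± 0.150 (SD, n = 5) in controls and -2.86 ± 0.154 (SD, n = 5) in high dose mice (difference -0.13, SE 0.09).

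The miR-29 passengers came next, from a family that targets collagens. miR-29c* was at -4.72 ± 0.0831 (SD, n = 5) in controls, -4.38 ± 0.271 (SD, n = 4) in middle dose mice and -4.54 ± 0.182 (SD, n = 5) in high dose mice, with limma adjusted p of 0.143 in middle dose mice. It was well above background on 5, 5, 2 and 1 arrays of the 4 groups. miR-29b-1* was at the floor on 18 of 19 arrays. Of the strands of the miR-17 cluster and its paralogues, clusters tied to cell division, 7 were on the array and miR-17* alone was detected, on 17 arrays. It was well above background on 3 control, 4 low, 0 middle and 0 high dose arrays. The remaining tested strands, miR-299*, miR-135a-1*, miR-425* and miR-483*, were at the floor on 13, 16, 17 and 18 of 19 arrays.

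The passenger-to-guide ratio was then taken within each array as the log2 level of the passenger minus that of the guide, which removes the scaling between arrays except through the floor. Its size also holds the brightness of both probes, so only its change between groups is read. Where both strands were above the floor, a change shows that their signals moved unequally, not which one moved. Whether signal followed RNA equally for dim and bright probes was not tested. Where the passenger was at the floor, the ratio is the guide's level with the sign turned and says nothing of the passenger. There were 9 such pairs among the members, fitted with the pairs of let-7b* and let-7d*. In 3 of the 9 the passenger was at the floor on nearly all arrays, miR-31* and miR-193* on 19 and miR-425* on 17, which leaves 6 with a measured passenger (at the floor on at most 3 arrays). At the high dose 3 of 9 member ratios passed, all higher (limma adjusted p under 0.05), against 36.4% of the 11 pairs. The 11 pairs include the 9, so this share and those that follow are no separate background. At the middle dose 2 of 9 passed, both higher, against 27.3%. At the low dose 0 of 9 passed, against 0%, with 1 lower at an unadjusted p under 0.05. For the mean of the doses 2 of 9 passed, against 27.3%, and for the trend 3 of 9, against 36.4%. Among the 6 with a passenger above the floor on most arrays, 2 passed in each of these tests but the low dose, miR-30a* and miR-30e*. These 2 passengers differ at 1 base, as do their guides, and whether the probes tell them apart was not tested. The 2 calls may thus not be independent. The third call at the high dose and in the trend was miR-31*. The pair beyond the members in these calls was let-7b*. Single arrays moved some of these counts. The trend count was 6 without control replicate 1 or without high dose replicate 8, each adding miR-140* and miR-378* as lower, together with miR-193*, where the value is that of the guide, and the high dose count was 5 without high dose replicate 8. The middle dose count was 4 without low dose replicate 3 or 12 and 1, miR-30e*, without control replicate 10 or 17.

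The ratio of miR-30a* to miR-30a rose with dose. It was -3.94, -3.81, -4.01, -3.90 and -4.01 in the controls, -3.90, -3.81, -3.75, -3.78 and -3.76 in low dose mice, -3.81, -3.67, -3.58 and -3.78 in middle dose mice and -3.68, -3.65, -3.32, -3.49 and -3.37 in high dose mice. All 5 high dose and all 4 middle dose values lay above all 5 controls, and 4 of 5 low dose values did. The rise was 0.24 (SE 0.08; limma adjusted p = 0.0315) in middle dose mice and 0.43 (SE 0.08; limma adjusted p = 7.02e-05) in high dose mice, a 1.35-fold change (95% interval 1.21 to 1.51). At the low dose the difference was 0.12 (SE 0.07; limma adjusted p = 0.330). The trend was 0.0172 per mg/kg/day (limma adjusted p = 1.68e-05). Within slides the high dose difference was 0.27, 0.41 and 0.60.

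The ratio of miR-30e* to miR-30e rose as well. It was -1.71, -1.83, -2.16, -1.90 and -2.09 in the controls, -1.26, -1.86, -1.82, -1.81 and -1.99 in low dose mice, -1.23, -1.18, -1.42 and -1.87 in middle dose mice and -1.14, -1.18, -1.21, -1.29 and -1.35 in high dose mice. All 5 high dose values lay above all controls, 3 of 4 middle dose values did, and the low dose value of -1.26, from slide 1, stood apart from the other 4. The rise was 0.38 (SE 0.10; limma adjusted p = 0.0113) in middle dose mice and 0.58 (SE 0.09; limma adjusted p = 4.85e-05) in high dose mice, with a 95% interval of 1.31-fold to 1.71-fold. At the low dose the difference was 0.15 (SE 0.09; limma adjusted p = 0.330). The trend was 0.0233 per mg/kg/day (limma adjusted p = 1.07e-05). Within slides the high dose difference was 0.55, 0.58 and 0.70.

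**Figure D4:**
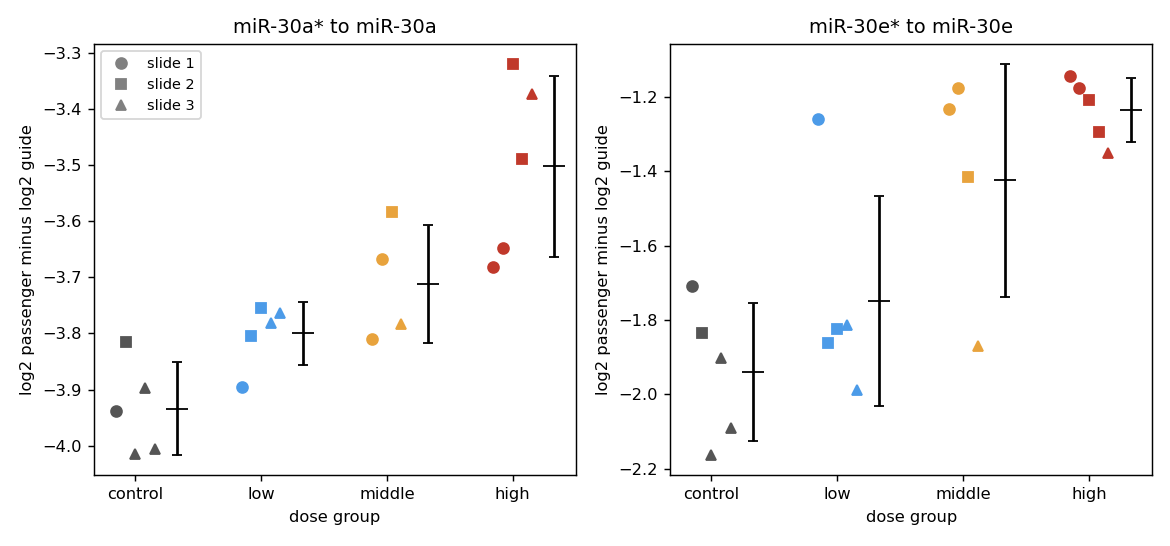
Ratio of miR-30a* to miR-30a (left) and of miR-30e* to miR-30e (right), as log2 passenger minus log2 guide (vertical axis), by dose group, with 1 point per array, shaped by slide, and the group mean ± SD in black. High dose arrays lie between -3.68 and -3.32 and between -1.35 and -1.14, above all controls in both panels.

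The strands behind these ratios were looked at separately. The guide miR-30a differed by -0.28 (SE 0.09; limma adjusted p = 0.0859) and the guide miR-30e by -0.38 (SE 0.10; limma adjusted p = 0.0650) in high dose mice, while the passengers differed by 0.15 and 0.20, and none of the 4 passed alone. After scaling, the strands that differed were not the same on every slide, and slides 1 and 2 each held only 1 control array. On slides 1, 2 and 3 the high dose difference was -0.30, 0.41 and 0.31 for miR-30a* and -0.27, 0.57 and 0.29 for miR-30e*. On slide 1 miR-30e was at -1.07 in the control and at -1.78 and -1.99 in the high dose arrays. On slide 2 it was at -1.11 in the control and at -1.15 and -1.10. The guide miR-30a went from 1.29 to 0.88 and 0.55 on slide 1 and from 1.07 to 1.06 and 1.09 on slide 2. On slide 3 miR-30a was at 1.12, 1.16 and 1.24 in the controls and at 0.89 in the high dose array. There miR-30e was at -0.91, -0.92 and -0.84 in the controls and at -1.30 in the high dose array. Before scaling, miR-30a was at 806 ± 254 (SD, n = 5) in controls and 359 ± 46.7 (SD, n = 5) in high dose mice, and miR-30e at 185 ± 68.2 (SD, n = 5) and 70.6 ± 13.0 (SD, n = 5). Their passengers were at 52.3 ± 14.5 (SD, n = 5) and 31.9 ± 5.77 (SD, n = 5) for miR-30a* and at 46.9 ± 12.2 (SD, n = 5) and 29.9 ± 4.40 (SD, n = 5) for miR-30e*. All 4 unscaled signals were thus lower in high dose mice, the guides by more. Array signal moved with dose here too. With the 75th percentile of the array as a covariate, chosen after seeing the data, the high dose differences were 0.34 (SE 0.09; limma adjusted p = 0.00746) for miR-30a* and 0.46 (SE 0.11; limma adjusted p = 0.00382) for miR-30e*, and neither middle dose difference passed (limma adjusted p = 0.204 and 0.0859).

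A second probe was available for each strand, an alternative also chosen after seeing the data. With the next-brightest probe of both strands, the ratio of miR-30a* changed by 0.30 (SE 0.09; limma adjusted p = 0.0157) in high dose mice, and that passenger probe was well above background on all 19 arrays. The next-brightest probe of miR-30e* was at the floor on all 19 arrays, so the difference of 0.38 that it gave is the change of the guide alone. The high dose call of miR-30a* was lost with quantile normalization (0.26, limma adjusted p = 0.0608) and with normexp background correction (0.54, SE 0.31, limma adjusted p = 0.582), where 1 passenger value was at the floor. Of the 20 alternatives, 17 for miR-30a* and 14 for miR-30e* kept every passenger value above a known floor. The high dose call was kept in 16 of those 17 and in all 14, with values of 0.26 to 0.43 and 0.36 to 0.71. Several of these settings could not move the value, so the counts overstate how far it was tried. Above the floor, another percentile, spike-ins or no scaling changes both strands of an array alike. The detection filters change only which pairs are fitted. With a floor 4 times higher, miR-30e* was at the floor on 13 arrays, so that setting does not bear on its passenger. In the value table of the series, whose scale is narrower, the high dose differences were 0.13 (limma adjusted p = 0.0455) and 0.21 (limma adjusted p = 0.0129). Middle dose calls were kept in 8 of the 17 for miR-30a* and 9 of the 14 for miR-30e*. Leaving out any 1 array kept both high dose calls.

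The third call in high dose mice, miR-31* to miR-31, is a value of its guide alone. miR-31* was at the floor on all arrays, so its ratio of 0.33 (SE 0.11; limma adjusted p = 0.0265) is the difference of miR-31, -0.33 (SE 0.12; limma adjusted p = 0.103), with the sign turned. Before scaling, both strands were lower in high dose mice, miR-31 at 34.3 ± 12.1 (SD, n = 5) in controls and 15.0 ± 3.64 (SD, n = 5) and miR-31* at 6.59 ± 2.51 (SD, n = 5) and 2.67 ± 0.872 (SD, n = 5), with miR-31* not well above background on any array. The call was lost without control replicate 1 or 17 or high dose replicate 7 or 15, with adjusted p of 0.0931, 0.0675, 0.0551 and 0.0960, and also under several other settings, a higher floor and spike-in scaling among them. The remaining 6 member ratios did not pass in any test. miR-22* to miR-22 differed by 0.02 (95% interval -0.26 to 0.29) in high dose mice, miR-140* to miR-140 by -0.15 (-0.41 to 0.10) and miR-29c* to miR-29c by 0.17 (-0.09 to 0.42). miR-378* to miR-378 differed by -0.16 (-0.36 to 0.04), miR-193* to miR-193 by -0.19 (-0.46 to 0.07) and miR-425* to miR-425 by -0.10 (-0.27 to 0.06). The last 2 passengers were at the floor on 19 and 17 of 19 arrays. Without high dose replicate 8, the ratios of miR-140* (-0.25) and miR-193* (-0.28) passed as lower in high dose mice, with limma adjusted p of 0.0494 each, and without control replicate 1 those of miR-193* (-0.38, 0.0114) and miR-378* (-0.25, 0.0386) did. The values of miR-193* are those of its guide.

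**Figure D5:**
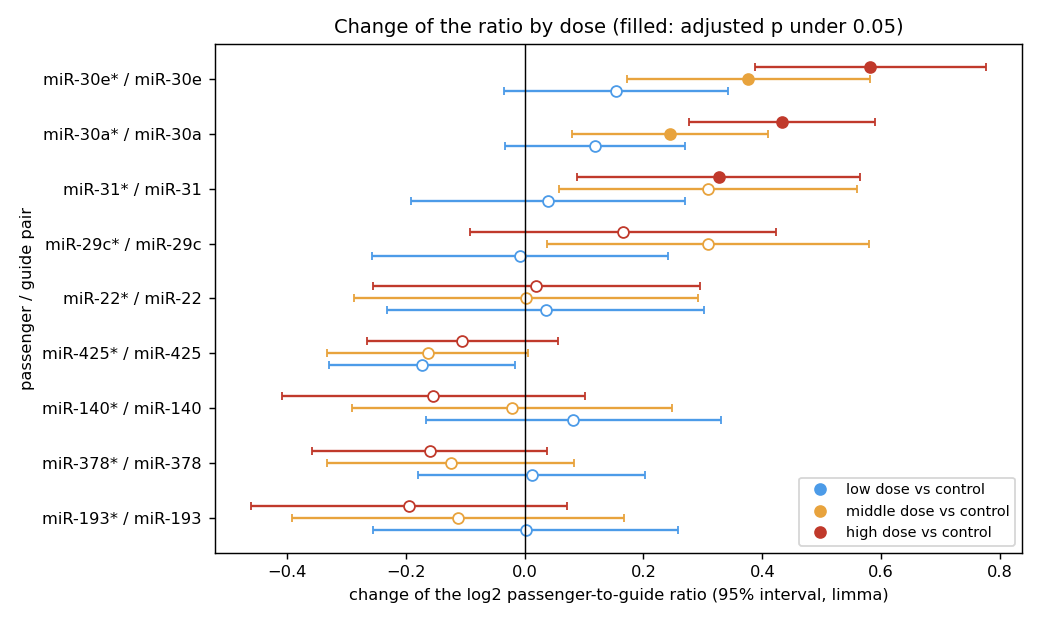
Change of the log2 passenger-to-guide ratio against control (horizontal axis, limma estimate with its 95% interval) for 9 pairs (vertical axis) at each dose, with filled points where the adjusted p was under 0.05. The ratios of miR-30e* and miR-30a* are filled at the middle and high doses and that of miR-31*, whose passenger was at the floor throughout, in high dose mice.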

How the data were processed

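Liver miRNA was measured on 19 one-colour Agilent arrays. Per the file headers, Agilent Feature Extraction 10.7.3.1 read each spot and subtracted its background, and the deposited intensity is unscaled between arrays. The value table the authors deposited is on a log2 scale, with column medians of 5.04 to 5.06; its scaling and centring are not given in the sources used here, and it served as an alternative. Control and outlier spots were dropped, and the mean over a probe's spots was scaled to the 75th percentile of 220 probes well above background everywhere. The brightest probe stood for its miRNA. The floor was the median over arrays of the lowest scaled signal well above background. The tests were two-sided moderated fits over all groups, with slide as a fixed block (limma 3.58.1, R 4.3.3), on 208 miRNAs for levels and 11 pairs for ratios, with Benjamini-Hochberg adjustment in each test. The labels give 1 animal per array and no cage or litter, so p-values measure the spread between these animals. The steps were tested on simulated data.

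The members, lists and tests were chosen with earlier results of these data known. The rule for naming took every member called, the 10 with the highest mean level, the 5 smallest p in each test of level and of ratio, the 6 most variable, 6 by detection and up to 2 of each list. The files held no mean spot signal, so normexp used the median. Arm names of 16 strands were assigned by hand, and 15 were matched in RefSeq and could be shown. Lists for p53-linked and injury passengers had 2 and 3 names on the array, of which 0 were tested, and those for miR-23/27/24, hepatocyte and Dlk1-Dio3 passengers had 1, 3 and 1 tested, with 0 called at any dose. The Dlk1-Dio3 list left out miR-3072*, which comes from that region, was tested and was not called.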

Additional observations from a re-analysis of the deposited data

Results flagged for a closer look

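Within groups of 4 or 5 arrays, 12 of 97 sets of values had 1 array set far from the rest by Dixon's gap; chance alone flags about 1 in 20 groups. Most are strands at the floor of -4.79 with 1 array above it, where the gap is the distance from the floor. These are miR-135a-1* at -4.40 in control replicate 10, -3.82 in middle dose replicate 5 and -3.40 in high dose replicate 7, miR-17* at -4.72 in control replicate 1, miR-299* at -4.68 in control replicate 1, miR-29b-1* at -4.29 in middle dose replicate 14 and miR-483* at -4.50 in high dose replicate 16. Near the floor, miR-17* at -4.61 in high dose replicate 15 and miR-425* at -4.44 in high dose replicate 16 also stood above the other arrays of their group.

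Away from the floor, miR-30e* was at -2.76 in low dose replicate 12, above the other low dose arrays at -2.85 to -2.84. The ratio of miR-30e* to miR-30e was -1.26 in low dose replicate 3, against -1.99 to -1.81 in the other low dose arrays; it was the only low dose array on slide 1, whose control had the highest control ratio, -1.71. The ratio of miR-193* to miR-193 was -5.88 in control replicate 1, the control on slide 1, against -5.34 to -5.13 in the other controls, and since miR-193* was at the floor this is the level of its guide.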

How the results depend on the processing

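No paired analysis was possible because the groups share no replicate numbers. Without scaling, 7 strands were called in the trend and 6 at the high dose, all lower, beside 105 and 70 of all 208 miRNAs. The median change over all tested miRNAs was then -0.47 at the high dose, against 0.05 with the main scaling and 0.14 with spike-ins. At the middle dose the median was -0.15 with all probes, against 0.11. Scaling by labelling spike-ins called 4 in the trend, 3 at the high dose and 2 for the mean of the doses, all higher. Over all 208 miRNAs it called 26, 23 and 16. The 75th percentile of all probes called 2 at the middle dose, beside 36 of 208. Quantile normalization called 1 each there and for the mean, beside 9 and 13 of 208. Restriction to miRNAs detected on all arrays and a random slide block called 1 (miR-877*) in each test but the low dose, no slide block 1 in each of these and 2 at the middle dose, the value table of the series 1 in the trend and at the high dose, and gTotalGeneSignal 1 at the high dose and for the mean. Over all tested miRNAs, in that order, these settings called 12 to 19 of 137, 10 to 19 of 208, 15 to 23 of 208, 14 to 20 of 187, and 8 of 208. Leaving out 1 array at a time gave 0 to 1, 0 to 4, 0 to 2, 0 to 3 and 0 to 2 level calls (low, middle, high, mean, trend) and 0 to 0, 1 to 4, 2 to 5, 2 to 3 and 2 to 6 ratio calls.

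Ratio calls include miR-31*, miR-193* and miR-425*, whose passengers sit at or near the floor. In the trend they were 5 with quantile normalization and without scaling, and 1 with normexp or the value table of the series. Over all 11 pairs, the members included, these trend counts were 5, 7, 1 and 1. Normexp gave 1 at the high dose and for the mean, where no scaling gave 4 and gTotalGeneSignal 1. Over the 11 pairs these were 1, 1, 6 and 1. At the middle dose they were 5 for all probes, no scaling and shared guides added, and 4 with a random slide block. They were 1 with quantile normalization, spike-ins, no slide block, the value table of the series or only the groups compared. They were 0 with normexp, gTotalGeneSignal, the mean of all probes, slide and row as blocks, or array signal as a covariate. Array signal as a covariate and shared guides were chosen after seeing the data. Over all pairs fitted, the middle dose counts were 7 of 11 for all probes and no scaling and 7 of 16 with shared guides. A random slide block gave 5 of 11 and no slide block 2 of 11, and the other settings added no pair beyond the members. The mean number of strands well above background was 11.2, 11, 7.25 and 8 from control to high dose, against 17.8, 17.2, 14 and 13.8 detected, and by gTotalGeneSignal the middle dose share of signal was 0.242%.

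Directions turned without scaling for the levels of miR-140* (trend -0.0281, high dose -0.67), miR-29c* (-0.0195, -0.46), miR-30e* (-0.0206, -0.51) and miR-30a* (trend -0.0220), and for the ratios of miR-193* (trend 0.0183, high 0.45, mean 0.31, middle 0.39; 0.37 at the middle dose with all probes) and miR-425* (trend 0.0206), whose passengers sit at the floor. Quantile normalization turned the trend of the miR-22* ratio (-0.0142), and normexp the miR-31* ratio (trend -0.0037, high -0.10). The ratio cancels scaling only away from the floor; the other causes were not tested. Strands near the floor limit what could be seen.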

Other observations

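The doses were also set against each other for the ratios, a comparison chosen after seeing the data. The ratio of miR-30a* to miR-30a was higher at the high than at the low dose by 0.31 (SE 0.07; limma adjusted p = 0.00187) and that of miR-30e* to miR-30e by 0.43 (SE 0.09; limma adjusted p = 0.00139). Between the high and middle doses the differences were 0.19 (SE 0.08) and 0.21 (SE 0.09), with limma adjusted p of 0.233 each. The passengers of numbered precursors have no guide of the same numbered name, but miR-30c-2* could be set against miR-30c: its ratio was -2.93 in the control of slide 1 and between -3.53 and -3.31 in the other controls, and on slide 1 the high dose arrays were at -2.42 and -2.63 while on the other slides they lay between -3.62 and -3.45.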
